A study of Mus musculus with 10 samples.

Results

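The genes described here are 8 genes that build or regulate the filtration apparatus of the podocyte: Nphs1, Magi2, Cd2ap, Podxl, Ptpro, Synpo, Actn4 and Wt1. They were chosen by symbol for their place in the slit diaphragm, the cell surface, the actin cytoskeleton or the transcriptional program of this cell. Earlier results of these data were known when the choice was made. All 8 were among the 13299 genes of the deposited table, and all 8 passed the filter on low values that left 13236 genes for testing. The samples were whole kidneys of mice aged 1.5 years, 5 of them heterozygous for a knock-in S74N allele of Rragc (Rragc S74N/+) and 5 of them wild type (Rragc +/+). Rragc encodes RagC, a GTPase through which nutrient supply activates the mTORC1 kinase complex, and S74N is an activating form of it. The allele was made by Cas9 editing of the germline, so every cell of a heterozygous mouse carries it, and the repair template also brought in silent changes. Per the study, homozygous animals are not viable. The labels name no treatment, and they give no sex, litter or animal number. RNA from each kidney was sequenced from the 3′ end of mRNA, so the edited codon is not read and the level of Rragc itself is no check of the genotype. Its normalized counts averaged 146.5 ± 42.7 in wild-type and 123.7 ± 26.4 in heterozygous kidneys (SD, n = 5 each, limma adjusted p = 0.51).

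Podocytes are the epithelial cells that wrap the glomerular capillaries with interdigitating foot processes. Neighbouring foot processes are joined by the slit diaphragm, a junction of nephrin and its partners that completes the barrier to plasma protein, and each process is kept in shape by an actin skeleton anchored to that junction. Mature podocytes hardly divide, so lost cells are poorly replaced, and their loss accompanies aging of the kidney. mTORC1 is known to control podocyte size, and both too much and too little of its activity damage the glomerulus in mice. Podocytes make up a small share of kidney cells, and in RNA of whole tissue a change in their number and a change in RNA per cell cannot be told apart.

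The libraries held 4488493 to 5797251 reads on the tabulated genes. Values are normalized counts, that is, reads divided by a size factor for each sample. Rragc S74N/+ replicate 1 stood apart from the other 9 libraries. Its chi-square per degree of freedom against the closest other library was 26.6, whereas the closest partner of each of the others lay between 4.20 and 7.27. The values of the 8 genes are therefore also given without it, as are the list counts and those values of other genes that moved by over 1.5 times or changed the call. No other description of that library was found in the labels. The labels do not tie samples to animals, whereas the study counts 5 mice per genotype for these kidneys. P-values measure the spread between these samples. Of all genes tested, 6.03% passed a limma adjusted p of 0.05 between genotypes, 3.45% being higher and 2.58% lower in Rragc S74N/+ kidneys.

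Of the 8 podocyte genes, 3 passed that threshold. Ptpro and Synpo were higher in Rragc S74N/+ kidneys and Actn4 was lower. These are 2 genes of 8 (25%) in the upward direction against 3.45% of all genes, and 1 of 8 (12.5%) in the downward direction against 2.58%. The other 5 did not pass, among them Nphs1, which encodes the defining protein of the slit diaphragm. The median log2 fold change of the 8 was 0.39, beside -0.01 for all tested genes, with 6 above 0 and 2 below. In 4 of the 8 genes (50%), namely Ptpro, Synpo, Cd2ap and Actn4, the 5 Rragc S74N/+ values did not overlap the 5 Rragc +/+ values. This was the case for 8.16% of all genes. Because the 8 genes were chosen with earlier results of these data known, these shares are a description only.

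**Figure D1:**
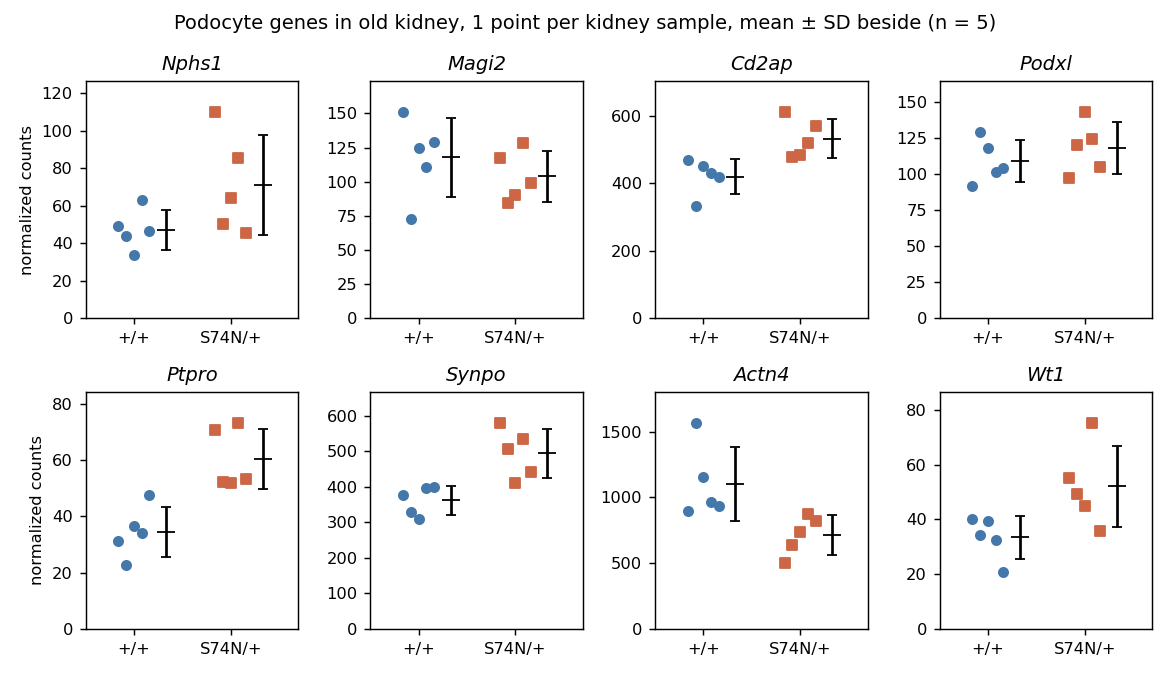
Normalized counts of the 8 podocyte genes, with 1 panel per gene, 1 point per kidney sample and the mean ± SD (n = 5) beside each genotype, on linear axes that start at 0. Circles are Rragc +/+ and squares Rragc S74N/+, each in replicate order from left to right. The groups are separate for Ptpro, Synpo, Cd2ap and Actn4 and overlap for Nphs1, Magi2, Podxl and Wt1.

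Ptpro encodes a receptor tyrosine phosphatase of the apical podocyte surface, also known as GLEPP1, which helps set the shape of foot processes. Its normalized counts in Rragc +/+ replicates 1 to 5 were 31.3, 22.9, 36.5, 34.1 and 47.8, and in Rragc S74N/+ replicates 1 to 5 they were 70.9, 52.3, 52.0, 73.3 and 53.4. Every Rragc S74N/+ kidney thus lay above every Rragc +/+ kidney, and the gap between the nearest pair was small beside the spread within either group. The means were 34.5 ± 9.01 (SD, n = 5) and 60.4 ± 10.7 (SD, n = 5), a ratio of 1.75. On the log2 scale the fold change was 0.81 ± 0.21 (SE, 95% interval 0.36 to 1.26, limma adjusted p = 0.036), and the exact two-sided permutation p was 0.00794, the smallest that 5 samples against 5 allow. Ptpro rests on few reads, 22 to 76 per library, for which counting alone gives a coefficient of variation of 16.9% in Rragc +/+ and 12.7% in Rragc S74N/+, against observed values of 26.1% and 17.8%. The gene is also made by some leukocytes. Without Rragc S74N/+ replicate 1 the log2 fold change was 0.75 and missed the threshold (limma adjusted p = 0.0515).

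Podxl, which encodes the sialomucin podocalyxin that coats the podocyte surface and is shared with capillary endothelium, did not pass the test. Its normalized counts in Rragc +/+ replicates 1 to 5 were 91.7, 129.0, 118, 101 and 104, and those in Rragc S74N/+ replicates 1 to 5 were 97.0, 120, 143, 124 and 105. The groups overlapped over most of their range. Means were 109 ± 14.7 and 118 ± 17.9 (SD, n = 5 each). Its log2 fold change of 0.11 ± 0.15 (SE) had a 95% interval of -0.21 to 0.43 and a limma adjusted p of 0.69. The interval leaves room for a change of either sign. The log2 fold change was 0.18 without Rragc S74N/+ replicate 1 (limma adjusted p = 0.52).

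Synpo encodes synaptopodin, an actin-binding protein of foot processes that stabilizes stress fibers. In Rragc +/+ replicates 1 to 5 its normalized counts were 376, 328, 308, 396 and 400, and in Rragc S74N/+ replicates 1 to 5 they were 580.03, 505, 409.9, 534 and 440.1. The lowest Rragc S74N/+ kidney, replicate 3, sat just over the highest Rragc +/+ kidney, replicate 5. Means were 361 ± 41.3 (SD, n = 5) and 494 ± 69.0 (SD, n = 5), a ratio of 1.37. This corresponds to a log2 fold change of 0.45 ± 0.13 (SE, 95% interval 0.18 to 0.71, limma adjusted p = 0.047), with an exact permutation p of 0.00794. With 315 to 622 reads per library, counting alone gives a coefficient of variation of 5.23% and 4.45% in the 2 genotypes. Most of the observed 11.4% and 14.0% is thus beyond counting error. Differences between kidneys and between library preparations cannot be told apart in it. Without Rragc S74N/+ replicate 1 the log2 fold change was 0.38 (limma adjusted p = 0.0572).

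Actn4 encodes alpha-actinin-4, which crosslinks actin filaments in foot processes and is also made in many other cells of the kidney. It was the only one of the 8 genes to fall past the threshold. Its normalized counts in Rragc +/+ replicates 1 to 5 were 895, 1568, 1154, 962 and 932, and in Rragc S74N/+ replicates 1 to 5 they were 499, 641, 735, 877 and 821. All Rragc S74N/+ kidneys were below all Rragc +/+ kidneys, but the 3 lowest Rragc +/+ values lay close to the highest Rragc S74N/+ value, and replicate 2 of Rragc +/+ was far above its group. Means were 1102 ± 279 (SD, n = 5) and 714 ± 150 (SD, n = 5), a ratio of 0.648. In log2 terms the fold change was -0.62 ± 0.17 (SE, 95% interval -0.98 to -0.26, limma adjusted p = 0.042), with an exact permutation p of 0.00794. Counting error is minor here, with 535 to 1507 reads per library and a counting coefficient of variation of 3.00% and 3.71% against 25.3% and 21.0% observed. Without Rragc S74N/+ replicate 1, its lowest kidney, the log2 fold change was -0.50 and remained past the threshold (limma adjusted p = 0.040). Scaling all libraries to equal totals gave -0.54 with a limma adjusted p of 0.063.

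Of these 3 genes, Ptpro and Actn4 have an entry in the RefSeq promoter table for GRCm38.p6, and their promoters are shown because the genes moved in opposite directions in the same kidneys. The letters are the 250 bases before the annotated start, 5′ to 3′ on the strand of the gene. Capitals mark the one match to the motifs searched on both strands, which was GCGTGGG, the core bound by WT1 and EGR factors, read in Actn4 on the opposite strand.
Ptpro, chr6:137252049-137252298, plus strand: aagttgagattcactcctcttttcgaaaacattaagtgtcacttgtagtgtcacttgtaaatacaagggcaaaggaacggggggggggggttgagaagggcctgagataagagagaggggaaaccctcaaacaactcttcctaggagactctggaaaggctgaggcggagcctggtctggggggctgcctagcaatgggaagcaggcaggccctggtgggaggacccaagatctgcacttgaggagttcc
Actn4, chr7:28962333-28962582, minus strand: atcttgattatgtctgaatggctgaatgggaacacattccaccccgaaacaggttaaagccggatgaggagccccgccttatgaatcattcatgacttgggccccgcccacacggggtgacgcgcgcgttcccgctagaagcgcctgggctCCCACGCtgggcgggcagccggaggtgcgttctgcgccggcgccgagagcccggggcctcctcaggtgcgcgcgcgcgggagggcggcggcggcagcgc
The Actn4 promoter is rich in G and C (67.6%) and holds 29 CpG dinucleotides, and the Ptpro promoter is at 53.6% with 3 CpG, where the median of all 32851 promoters in the table is 52.4% with 6 CpG. The match in Actn4 starts 99 bases before the annotated start. Promoter entries were found for 5 of the 8 genes, Nphs1, Magi2, Cd2ap, Ptpro and Actn4, with 2 entries for Magi2. Across these 6 entries GCGTGGG was present in 2 (Actn4 and 1 of Magi2), and it is present in 4.30% of all promoters. The matching Magi2 entry, like that of Actn4, is rich in G and C, at 72% with 29 CpG. The share over all promoters is therefore not a background of like composition for this motif. TAATTA, a core bound by LMX1B and other homeodomain factors, was present in 1 entry (Magi2) and in 4.84% of all. CACGTG, the E-box, was present in 0 of the 6 and in 6.02% of all, and TCACGTGA, the core of the element bound by TFEB and TFE3 that contains the E-box, was present in 0 of the 6 and in 0.785% of all. A match of letters is a description of these windows and not a binding site.

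Among the genes of the slit diaphragm itself, Nphs1 encodes nephrin, the adhesion protein that spans the slit and signals to actin. Normalized counts in Rragc +/+ replicates 1 to 5 were 49.2, 43.7, 33.6, 62.9 and 46.8, and in Rragc S74N/+ replicates 1 to 5 they were 110.0, 50.4, 64.0, 85.6 and 45.7. In 3 of the 5 Rragc S74N/+ kidneys Nphs1 was above the highest Rragc +/+ kidney, and the other 2 lay within the Rragc +/+ range. Means were 47.2 ± 10.6 and 71.1 ± 26.7 (SD, n = 5 each), a ratio of 1.51. The log2 fold change of 0.53 ± 0.24 (SE, 95% interval 0.016 to 1.05) did not pass (limma adjusted p = 0.18, exact permutation p = 0.079). With 35 to 118 reads per library, the spread in Rragc S74N/+ (37.5%) was well over the 11.7% that counting gives. Without Rragc S74N/+ replicate 1, the highest kidney, the log2 fold change was 0.36 (limma adjusted p = 0.35).

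Cd2ap encodes the adaptor that ties nephrin to the actin skeleton and is made in many cell types. Normalized counts were 469, 333, 450.2, 431 and 418 in Rragc +/+ replicates 1 to 5 and 612, 477, 483, 518 and 570.3 in Rragc S74N/+ replicates 1 to 5. The groups did not overlap, though the highest Rragc +/+ and lowest Rragc S74N/+ kidneys nearly touched. Means were 420.05 ± 52.4 and 532 ± 58.0 (SD, n = 5 each), a ratio of 1.27. Its log2 fold change of 0.34 ± 0.12 (SE, 95% interval 0.087 to 0.60) had the smallest exact permutation p possible, 0.00794, but did not pass over all genes (limma adjusted p = 0.096). It was 0.29 without Rragc S74N/+ replicate 1 (limma adjusted p = 0.14).

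Magi2 encodes a scaffold that gathers nephrin and other junction proteins at the slit. In Rragc +/+ replicates 1 to 5 its normalized counts were 151, 72.8, 125, 111 and 129, and in Rragc S74N/+ replicates 1 to 5 they were 117, 84.3, 90.0, 128 and 99.1. Both groups ran over nearly the same range, and Rragc +/+ kidneys included both the lowest and the highest value. Means were 118 ± 29.0 and 104 ± 18.6 (SD, n = 5 each), and the log2 fold change was -0.16 ± 0.19 (SE, 95% interval -0.56 to 0.25, limma adjusted p = 0.65). It was -0.21 without Rragc S74N/+ replicate 1 (limma adjusted p = 0.56).

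Wt1 encodes the zinc finger transcription factor that keeps the podocyte program running and is also present in parietal cells of the Bowman capsule. Its normalized counts were 40.3, 34.3, 39.4, 32.3 and 20.9 in Rragc +/+ replicates 1 to 5 and 55.0, 49.4, 44.99, 75.4 and 35.9 in Rragc S74N/+ replicates 1 to 5. In 4 of the 5 Rragc S74N/+ kidneys it was above the highest Rragc +/+ kidney, and replicate 5 lay within the Rragc +/+ range. Means were 33.4 ± 7.77 and 52.2 ± 14.7 (SD, n = 5 each), a ratio of 1.56. The log2 fold change of 0.62 ± 0.24 (SE, 95% interval 0.12 to 1.12) was larger than that of Synpo but less certain, at 21 to 74 reads per library, and did not pass (limma adjusted p = 0.12, exact permutation p = 0.024). It was 0.59 without Rragc S74N/+ replicate 1 (limma adjusted p = 0.17).

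**Figure D2:**
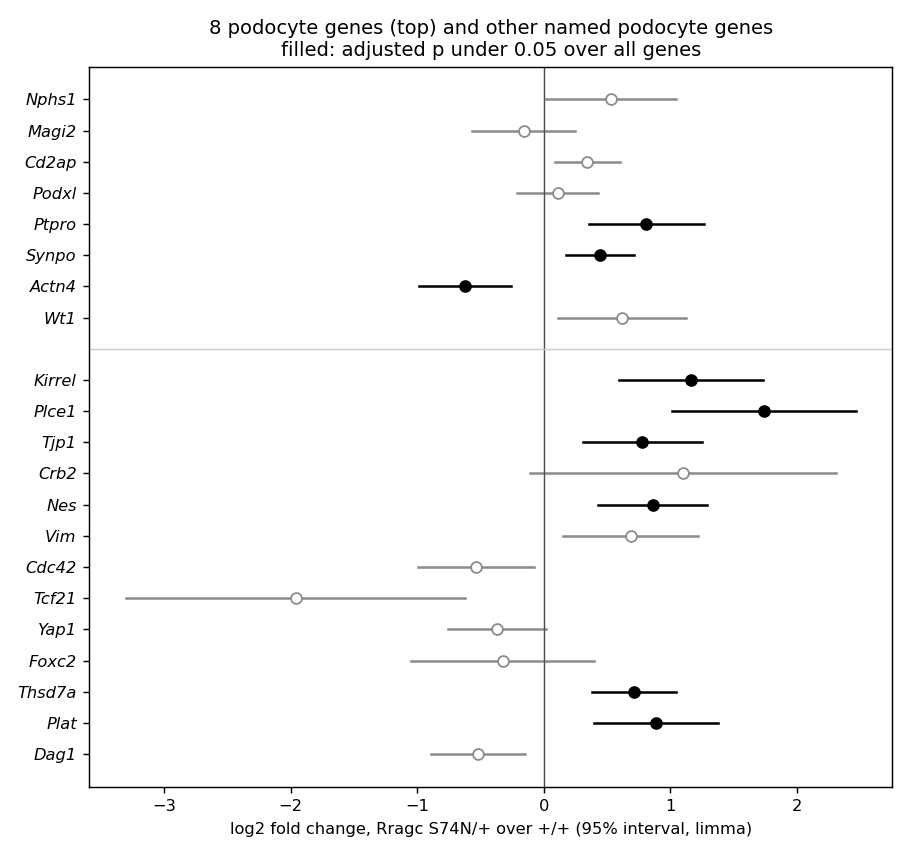
Log2 fold change of Rragc S74N/+ over Rragc +/+ with its 95% interval from limma, for the 8 podocyte genes above the line and other named podocyte genes below it; filled points passed a limma adjusted p of 0.05 over all genes. Among the 8, Ptpro (0.81) and Synpo (0.45) lie to the right and Actn4 (-0.62) to the left as filled points, and among the other genes Plce1 lies farthest to the right at 1.74.

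The 3 calls sat close to the threshold. Each direction held in all fits that left out 1 library, with log2 fold changes of 0.68 to 0.93 for Ptpro, 0.38 to 0.51 for Synpo and -0.70 to -0.48 for Actn4, but few of these 10 fits passed. Ptpro passed without Rragc +/+ replicate 5 and without Rragc S74N/+ replicates 2 or 3, and otherwise its limma adjusted p was 0.0805, 0.0997, 0.0517 and 0.0688 without Rragc +/+ replicates 1 to 4, and 0.0515, 0.0799 and 0.0617 without Rragc S74N/+ replicates 1, 4 and 5. Synpo passed without Rragc +/+ replicate 5 or Rragc S74N/+ replicate 3. Its limma adjusted p was 0.0835, 0.123, 0.0997 and 0.0664 without Rragc +/+ replicates 1 to 4, and 0.0572, 0.0799, 0.0941 and 0.0646 without Rragc S74N/+ replicates 1, 2, 4 and 5. Actn4 passed without Rragc +/+ replicate 5 and without Rragc S74N/+ replicates 1 or 4, and its limma adjusted p was 0.0596, 0.118, 0.0802 and 0.0650 without Rragc +/+ replicates 1 to 4, and 0.0797, 0.0535 and 0.0612 without Rragc S74N/+ replicates 2, 3 and 5. All 3 genes kept the call without Rragc +/+ replicate 5 and lost it without each of the other Rragc +/+ replicates. No direction among the 8 genes turned under any alternative, the scalings included. An edgeR quasi-likelihood test and DESeq2, both on the whole reads recovered from the values, passed all 3, with adjusted p of 0.0377 and 0.0130 for Ptpro, 0.0405 and 0.0159 for Synpo and 0.0428 and 0.0142 for Actn4.

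**Figure D3:**
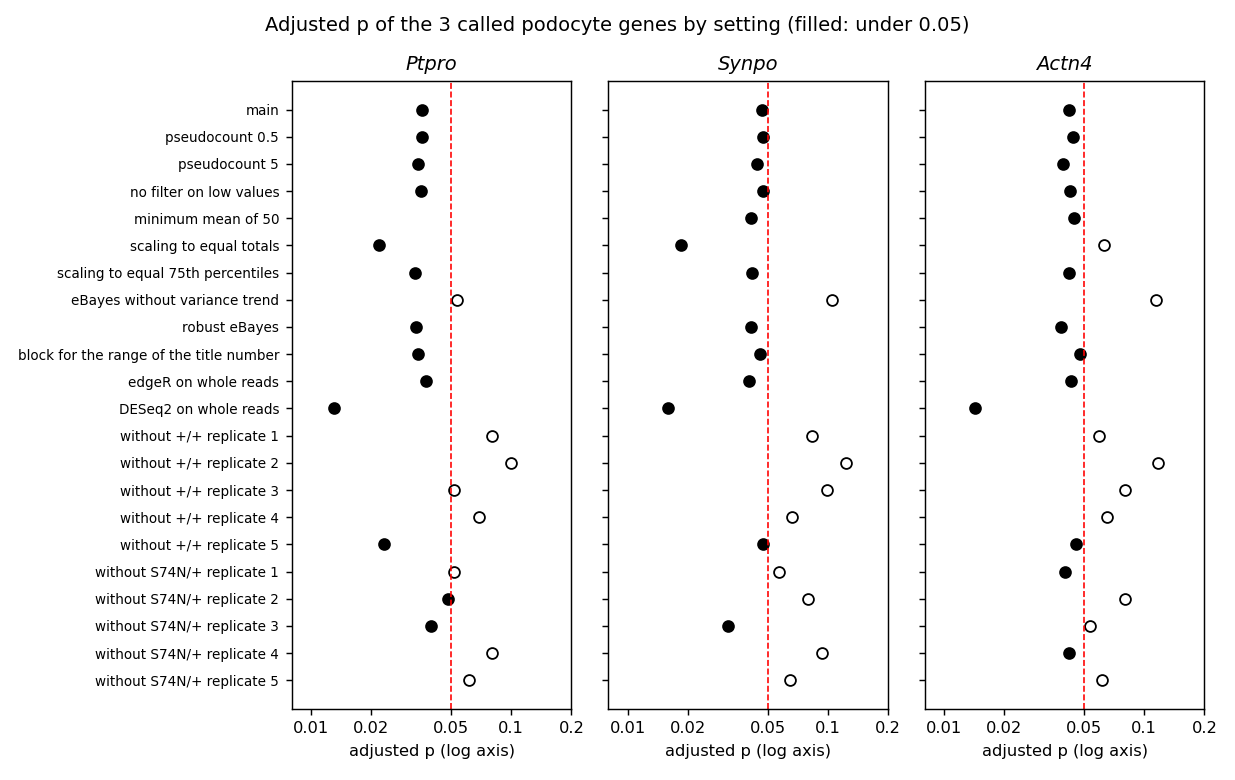
Adjusted p of Ptpro, Synpo and Actn4 under the main setting and each alternative, on a log axis; filled points are under 0.05, marked by the dashed line, and Ptpro has no point at a minimum mean of 50 because that filter removes it. Most points lie between 0.02 and 0.12, on both sides of the line.

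The number in the sample titles fell into a lower and a higher range, with 3 and 2 samples per genotype. The labels do not call this a batch. Within the lower range the log2 differences between genotypes were 0.94 for Ptpro, 0.55 for Synpo, 0.75 for Nphs1, 0.33 for Cd2ap and 0.38 for Wt1, and within the higher range they were 0.62, 0.28, 0.20, 0.36 and 0.98 in the same order. All of these pointed the same way. For Actn4 they were -0.93 and -0.16, a larger difference in the lower range, which holds the highest Rragc +/+ and the lowest Rragc S74N/+ kidney. Podxl had 0.08 and 0.15 and Magi2 -0.21 and -0.09. With this range as a term in limma, Ptpro, Synpo and Actn4 still passed (adjusted p = 0.034, 0.046 and 0.048). Of the other named genes described below, Tjp1 and Col1a2 lost their calls in that fit (limma adjusted p = 0.0521 and 0.0546) and Dag1, which was lower, gained one (0.0411).

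The 4 lists of other podocyte genes were written for this work with earlier results of these data known. Of their 75 genes, 67 were tested. Of these, 6 rose (8.96%), none fell and 61 did not pass, where 3.45% of all genes rose and 2.58% fell. The median log2 fold change of the 67 was -0.01. At an unadjusted limma p of 0.05, 19 of the 67 passed, 7 of them lower, where 25.4% of all genes passed. The edgeR test gave 6 rises and 0 falls, where it called 3.8% of all genes higher and 2.5% lower. DESeq2 gave 8 rises and 3 falls (Dag1, Tcf21 and Rac1, the last a small GTPase that drives actin assembly), where it called 6.03% of all genes higher and 4.42% lower. There were 6 rises and 1 fall (Tcf21) without Rragc S74N/+ replicate 1, where 476 of all genes rose and 424 fell. The count was 5 rises and 1 fall (Dag1) without Rragc +/+ replicate 5 and also with the range of title numbers as a term. Over all genes those fits gave 454 and 500 rises and 323 and 360 falls. The rises came to 3 without Rragc +/+ replicates 1 or 2 or Rragc S74N/+ replicates 4 or 5, and to 2 without Rragc +/+ replicate 4. Rises over all genes also fell in each of these fits, from 457 to between 186 and 298. The listed genes gave 6 rises without Rragc +/+ replicate 3, and 4 and 7 without Rragc S74N/+ replicates 2 and 3. In those fits 408, 350 and 503 of all genes rose.

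Of 12 partners of the slit diaphragm tested, 3 rose and 9 did not pass, with a median log2 fold change of 0.35. Plce1, the phospholipase C epsilon whose loss causes nephrotic syndrome, rose from 18.95 ± 9.11 to 61.3 ± 18.3 normalized counts (SD, n = 5 each; log2 fold change 1.74 ± 0.34 SE, limma adjusted p = 0.00896), and it passed under every alternative tried at that threshold. It ranged from 7.28 to 27.8 in Rragc +/+ and from 35.9 to 84.9 in Rragc S74N/+ kidneys, so the groups were apart. Kirrel, the nephrin-binding protein NEPH1, rose from 18.2 ± 6.49 to 40.9 ± 9.17 (log2 fold change 1.16 ± 0.27 SE, limma adjusted p = 0.020). That call was lost without Rragc +/+ replicates 2 or 4 (limma adjusted p = 0.0552 and 0.0532). Tjp1, the scaffold ZO-1 found in tight junctions of many epithelia as well as at the slit, rose from 192 ± 54.2 to 328 ± 99.2 (log2 fold change 0.78 ± 0.22 SE, limma adjusted p = 0.048), a call that held only without Rragc S74N/+ replicate 3 among the 10 fits leaving out 1 library, where the limma adjusted p ran from 0.037 to 0.11. Without Rragc S74N/+ replicate 1 the Tjp1 log2 fold change was 0.62 (limma adjusted p = 0.0502). With all libraries the call was also lost with robust eBayes, without the variance trend and with the range of title numbers as a term (limma adjusted p = 0.0621, 0.117 and 0.0521). Crb2, a polarity protein of the slit, stood at 1.10 ± 0.57 (log2 fold change and SE, limma adjusted p = 0.24) on 1 to 19 reads per library.

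Among 22 regulators of actin and foot processes, 1 rose and 21 did not pass, with a median log2 fold change of -0.09. The riser was Nes, an intermediate filament protein of podocytes and also of endothelium and mesangium, from 54.5 ± 11.6 to 100.3 ± 22.7 normalized counts (SD, n = 5 each; log2 fold change 0.86 ± 0.20 SE, limma adjusted p = 0.022). The Nes call was lost without Rragc +/+ replicates 1 or 4 (limma adjusted p = 0.0595 and 0.0536) and without Rragc S74N/+ replicates 4 or 5 (0.0566 and 0.0601). With all libraries it was also lost without the variance trend (limma adjusted p = 0.0520). Vim, the intermediate filament vimentin of podocytes and mesenchymal cells, stood at 0.69 ± 0.25 (log2 fold change and SE, limma adjusted p = 0.11), and the small GTPase Cdc42 had -0.54 ± 0.22 (SE, limma adjusted p = 0.14). Both values leaned on Rragc S74N/+ replicate 1, without which they were 0.42 for Vim (limma adjusted p = 0.14) and -0.28 for Cdc42 (limma adjusted p = 0.15).

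Of 9 podocyte transcription factors, none passed, with a median log2 fold change of -0.28, and 1 of the 9 had an unadjusted limma p under 0.05. Tcf21, a basic helix-loop-helix factor of podocytes and of interstitial cells, was 34.7, 49.9, 35.5, 37.6 and 23.9 in Rragc +/+ replicates 1 to 5 and 0, 13.6, 18.0, 12.2 and 18.5 in Rragc S74N/+ replicates 1 to 5. The groups did not overlap, and no read fell on it in Rragc S74N/+ replicate 1, which by counting error alone allows up to 3 reads. With all libraries its log2 fold change was -1.96 ± 0.63 (SE) and did not pass (limma adjusted p = 0.075), and it was -1.15 without that library and did (limma adjusted p = 0.015), as it did with DESeq2 (adjusted p = 0.0071) and a pseudocount of 5 (limma adjusted p = 0.031). Wt1 and Tcf21, both factors of the podocyte program, therefore had differences of opposite sign in these kidneys, neither of which passed with all 10 libraries. The next in size were Yap1, a coactivator of the Hippo pathway (log2 fold change -0.37 ± 0.18 SE, limma adjusted p = 0.21), and the forkhead factor Foxc2 (-0.32 ± 0.34 SE, limma adjusted p = 0.59). Foxc2 was at -0.15 without Rragc S74N/+ replicate 1 (limma adjusted p = 0.84).

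Of 24 genes of adhesion, basement membrane and secretion, 2 rose and 22 did not pass, with a median log2 fold change of 0.05. Thsd7a, a podocyte surface protein known as an autoantigen of membranous nephropathy, rose from 86.0 ± 10.03 to 143 ± 25.7 normalized counts (SD, n = 5 each; log2 fold change 0.72 ± 0.16 SE, limma adjusted p = 0.016), and its call held in all 10 fits leaving out 1 library. Plat, the tissue plasminogen activator made by podocytes and endothelium, rose from 56.3 ± 12.7 to 108 ± 43.6 (log2 fold change 0.89 ± 0.23 SE, limma adjusted p = 0.034). The Plat call was lost without Rragc +/+ replicates 1, 2 or 4 (limma adjusted p = 0.0712, 0.1001 and 0.0704) and without Rragc S74N/+ replicates 2, 4 or 5 (0.0538, 0.0567 and 0.0544). With all libraries it was also lost without the variance trend (limma adjusted p = 0.0776). Dag1, the matrix receptor dystroglycan, had -0.52 ± 0.18 (SE, limma adjusted p = 0.086), and it passed with the range of title numbers as a term (limma adjusted p = 0.0411), without Rragc +/+ replicate 5 (limma adjusted p = 0.0428) and with DESeq2 (adjusted p = 0.0454).

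Markers of several other cells moved with genotype in the same kidneys. Of 13 leukocyte genes tested, 4 rose and 9 did not pass, and their summed normalized counts were 782 to 923 in Rragc +/+ and 1202 to 1620 in Rragc S74N/+ kidneys. The 4 were Ptprc, the common leukocyte antigen CD45 (log2 fold change 1.20, limma adjusted p = 0.00148), the lysozyme gene Lyz2 (0.93, limma adjusted p = 0.00769), Cd52 (0.87, limma adjusted p = 0.031) and the complement gene C1qb (0.73, limma adjusted p = 0.013). The only leukocyte marker without a read in some library was the T cell gene Cd3e. Ptpro, which some leukocytes make, rose in kidneys whose leukocyte sum was also higher, and the part of leukocytes in that rise was not tested.

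Of 7 fibroblast genes, 4 rose (Col1a1, Fn1, Pdgfra and Col1a2, with log2 fold changes of 1.19, 1.03, 0.87 and 0.53) and 3 did not pass, and their sum was 831 to 1383 in Rragc +/+ and 1334 to 2265 in Rragc S74N/+ kidneys. Of 11 genes of mesangial cells and pericytes, 2 rose (Serpine2 at 0.90 and Rgs5 at 0.83) and 9 did not pass, with sums of 1492 to 1806 and 1800 to 3017. Nes, Vim and Actn4 are also made by cells of this kind, and the part of those cells in the values above was not tested. Parietal epithelial genes gave 2 rises among 7 (Cd44 at 1.44 and Ncam1 at 0.94), with sums of 1006 to 1341 and 1005 to 1842. The fibroblast, mesangial and parietal sums each overlapped between the genotypes. Among the called genes of these lists, Cd52, Pdgfra, Col1a2 and Ncam1 each lost the call in some fits that left out 1 library, Pdgfra and Ncam1 only without Rragc +/+ replicates 1, 2 or 4, at which their limma adjusted p was 0.0563, 0.0507 and 0.0516 and 0.0751, 0.0817 and 0.0579. Cd52 lost it without Rragc +/+ replicates 1, 2 or 4 (limma adjusted p = 0.0831, 0.0909 and 0.0625) and without Rragc S74N/+ replicates 2 or 5 (0.0683 and 0.0754). Col1a2 kept it only without Rragc +/+ replicate 3 or Rragc S74N/+ replicates 1, 3 or 4, and its limma adjusted p reached 0.123 otherwise. With all libraries Col1a2 also lost it at a pseudocount of 0.5, without the variance trend and with the range of title numbers as a term (limma adjusted p = 0.0502, 0.116 and 0.0546). Cd52, Pdgfra and Ncam1 likewise lost theirs with all libraries without the variance trend (limma adjusted p = 0.0756, 0.0575 and 0.0628).

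Of 14 genes of glomerular and capillary endothelium, 1 fell and 13 did not pass, with sums of 2909 to 3307 in Rragc +/+ and 2769 to 3732 in Rragc S74N/+ kidneys. The one that fell was Plvap, a protein of endothelial diaphragms that mature glomerular capillaries lack (log2 fold change -0.93, limma adjusted p = 0.00879). Of 10 proximal tubule genes, which mark the bulk of the kidney cortex and were abundant in every library with sums of 49209 to 67020 and 51096 to 63480, 1 fell (Slc5a2 at -1.05, the glucose transporter SGLT2) and 9 did not pass. In sums and counts added after the data were seen, the Rragc S74N/+ kidneys without replicate 1 ran from 1334 to 1985 for fibroblast genes, 1800 to 2054 for mesangial genes, 1005 to 1212 for parietal genes and 2769 to 3033 for endothelial genes, and the leukocyte range did not change. Without that library 5 of 13 leukocyte genes, 5 of 7 fibroblast genes, 2 of 11 mesangial and 2 of 7 parietal genes rose, and 3 of 14 endothelial and 1 of 10 tubule genes fell.

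It was also asked whether the podocyte genes varied together from kidney to kidney once the genotype means were removed. The 28 pairs among the 8 genes had a median Pearson r of 0.12 over 10 kidneys, with 17 pairs above 0 and 11 below. The highest r was 0.82 for Magi2 with Cd2ap and the lowest was -0.81 for Podxl with Cd2ap. Values within 1 genotype are not given, since each has 5 kidneys. When Rragc S74N/+ replicate 1 was left out, a choice made after the data were seen, the median r of the 28 pairs was 0.11 over 9 kidneys with 16 above 0, and the same pairs were highest and lowest at 0.83 and -0.75. The pairs share libraries and size factors and are given as a description.

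**Figure D4:**
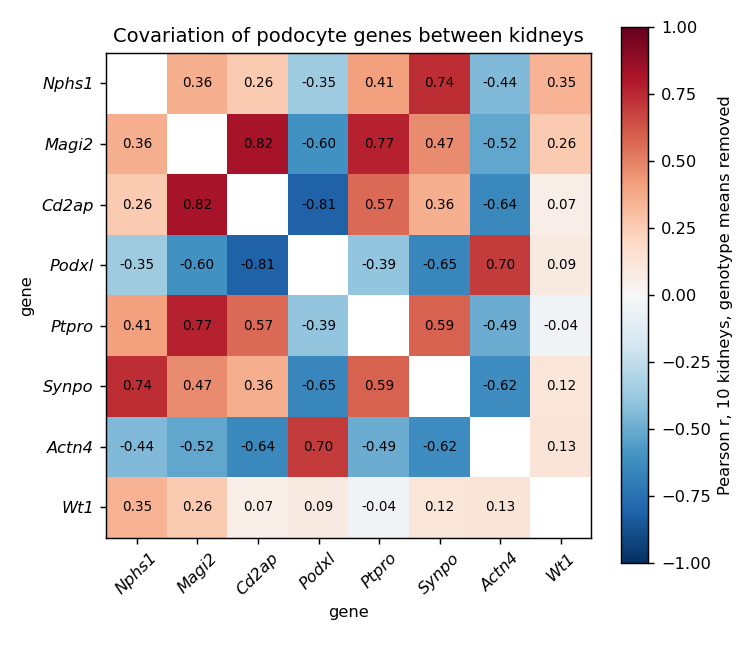
Pearson r of log2 normalized counts between each pair of the 8 podocyte genes over 10 kidneys after removal of genotype means, on a color scale from -1 to 1. Podxl and Actn4 correlate with each other (0.70) and mostly negatively with the other genes, whereas Magi2, Cd2ap, Ptpro, Synpo and Nphs1 correlate positively among themselves. Without Rragc S74N/+ replicate 1, Nphs1 with Cd2ap was at -0.05 and the other pairs of that set stayed positive.

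Against Nphs1, 5 of the 7 other genes had an r above 0. The highest was Synpo, with a Pearson r of 0.74 (exact permutation p = 0.035, adjusted over 7 relations 0.24) and a Spearman rank coefficient of 0.78 (exact permutation p = 0.019, adjusted 0.13). It was 0.60 without the 2 kidneys farthest from the Nphs1 median, Rragc S74N/+ replicates 1 and 5, and 0.62 without Rragc S74N/+ replicate 1 alone. None of the 7 relations passed after adjustment. Among the other 13235 genes, the r of Synpo ranked at 316, that of Ptpro at 2396, Magi2 at 2827, Wt1 at 2958, Cd2ap at 3707, Podxl at 9811 and Actn4 at 10569. The 5 genes most like Nphs1 were Pcbp3 (r of 0.95), Aldoa (0.94), D830025C05Rik (0.94), Acaa1b (0.94) and Gm2000 (0.93), none of them a member of the podocyte lists. With 10 points and 13235 genes such values are to be read as a ranking only.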

How the data were processed

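Whole kidneys of 10 mice were sequenced by the authors with QuantSeq, an oligo-dT primed kit that reads the 3′ end of mRNA in the sense orientation. Per the labels, 300 ng of RNA with quality scores of 6.2 to 7 entered each library. The authors checked reads with FastQC 0.11.7, aligned them to GRCm39 with TopHat2 2.0.10, Bowtie 1.0.0 and SAMtools 0.1.19, and counted them per gene and strand with HTSeq 0.6.1 on a GENCODE annotation. The deposited signal values are counts that the authors divided by a size factor per sample, which the submitters' notes credit to DESeq2. Genes with few reads had been removed by a rule not given in the sources used here, and the lowest mean in the table was 4.372.

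Genes at 5 or more in at least 5 samples were fitted as log2(value + 1) with limma 3.58.1 (R 4.3.3, variance trend, genotype only), which understates changes of low genes. P-values are two-sided and Benjamini-Hochberg adjusted over 13236 genes at 0.05. Exact permutation tests used all 252 allocations of the samples to genotypes, and covariation used 14400 permutations within genotypes. All 10 columns gave whole reads (100% within 0.001 reads), on which edgeR 4.0.16 and DESeq2 1.42.0 were run as alternatives. Other alternatives were pseudocounts of 0.5 and 5, no filter, a minimum mean of 50, 2 other scalings, eBayes without trend or robust, the range of title numbers as a block, each library left out in turn and a threshold of 0.01, and list sums and gene pairs without Rragc S74N/+ replicate 1 were added after the data were seen. The pipeline was tested on simulated data. Replicates were numbered in accession order within a genotype and name samples only.

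Named are the 8 genes, Rragc, up to 4 called genes by size of change in each list, the 3 largest changes in each podocyte list, and the 5 genes most like Nphs1. Rac1 and Cd3e are named outside this rule, after their values were seen. Results on some listed genes are not reported here, and the list counts leave them out. Members and lists were chosen with earlier results of these data known. Promoters are from RefSeq on GRCm38.p6, a build other than that of the alignment.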

Additional observations from a re-analysis of the deposited data

Results flagged for a closer look

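In each genotype, the highest or lowest kidney of every named gene was set against the others by the Dixon ratio of its gap to the range of the 5 samples. Of 82 groups searched, 5 exceeded the critical value of 0.71, where chance gives about 1 in 20, or 4.1. None of the 16 groups of the 8 podocyte genes was among them, and 4 of the 5 came from Rragc S74N/+ replicate 1, the library that stood apart.

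In Rragc S74N/+ replicate 1, Cdc42 was low at 319 normalized counts (others 745 to 839.8). The same kidney was high for Vim at 436 (others 152 to 189), Plat at 184.6 (others 77.0 to 97.9) and Pdgfra at 283 (others 154 to 182). Outside that library, C1qb in Rragc +/+ replicate 1 was high at 122 (others 92.2 to 99.6). Without Rragc S74N/+ replicate 1 the log2 fold changes were -0.28 for Cdc42, 0.42 for Vim, 0.68 for Plat and 0.73 for Pdgfra, of which Plat and Pdgfra passed (limma adjusted p = 0.037 and 0.015). The cause of these values was not tested.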

How the results depend on the processing

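Of the 8 podocyte genes, 3 passed the threshold among 798 genes in all (457 higher, 341 lower), and 20 genes of the other lists did. Without the variance trend 391 genes passed, 0 of the 8 and 13 of the other lists, and Ptpro, Synpo and Actn4 had limma adjusted p of 0.0536, 0.105 and 0.114. At an adjusted p of 0.01 there were 187 genes, 0 of the 8 and 10 of the other lists. DESeq2 called 1354 genes, 792 of them shared with the 798, and edgeR 834, with 771 shared. Scaling to equal totals gave 718 higher and 225 lower genes, shifted the middle of all log2 fold changes from -0.01 to 0.06 and dropped Actn4. A minimum mean of 50 removed Ptpro and Wt1 and kept Synpo and Actn4. Leaving out 1 library gave 311 to 902 genes, 0 to 3 of the 8 and 12 to 25 of the other lists. Among the fits that left out 1 library, the count over all genes moved by over 1.5 times without Rragc +/+ replicates 1, 2 or 4 (368, 311 and 383) and without Rragc S74N/+ replicate 5 (371), each of which left 0 of the 8. Log2 fold changes of the 8 genes did not change sign in any of these fits, 145 values staying on their side of the threshold and 29 no longer passing, 22 of them with 1 library left out, 4 in other fits on all libraries and 3 at the threshold of 0.01. All 29 belong to Ptpro, Synpo and Actn4, and the 145 include every value of the 5 genes that never passed. Among alternatives at 0.05, Ptpro passed in 12 of 20, Synpo in 12 of 21 and Actn4 in 12 of 21. Among other named genes, 645 values stayed on their side, 59 no longer passed and 14 newly passed. The r of Nphs1 with Actn4 went from -0.44 to -0.04 without the 2 farthest kidneys.

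No paired analysis was possible because the labels carry no replicate numbers, and those used here follow the order of deposit. Depth limits the genes with under 100 reads in most libraries, Nphs1, Wt1 and Ptpro. For these the counting coefficient of variation of a single library is over 11% in each genotype.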
